A study of Mus musculus with 35 samples.

Results

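Stromal cells and basal CD49f-low epithelial cells of the mouse mammary gland were compared for the mesenchymal, matrix and contractile genes that they shared and for those that set them apart. The members were the 6 samples labelled as stromal cells and the 6 labelled as basal cells with low CD24, no Sca1 and low CD49f, 12 of the 35 samples of the series, and each difference was averaged over reproductive history. The stromal samples were 3 from parous and 3 from nulliparous mice, as were the basal CD49f-low samples. Parous females were mated when 42 days old, then lactated for 21 days and went through 40 days of involution, in which the gland regresses. Nulliparous mice were age-matched virgins. For a sample, the glands of the 4th pair from 5 mice were pooled, digested and sorted by flow cytometry, and the RNA of 10000 cells was amplified and hybridised to an Affymetrix array. The labels do not say what a shared replicate number means, so p-values measure the spread between these pools. The labels name no strain and no surface markers for the stromal sort, and do not say whether blood or vessel cells were removed. CD24, Sca1 and CD49f (integrin alpha 6, from Itga6) defined the basal gate, so the levels of Cd24a and Itga6 were in part set by the sort. Luminal Sca1-negative and luminal Sca1-positive cells (6 samples each) served as the epithelial background.

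Basal cells of the mammary epithelium are mostly myoepithelial cells, which lie between the luminal cells and the basement membrane. They carry the keratin filaments and the adhesion complexes of an epithelium together with a smooth muscle contractile apparatus, which squeezes milk from the alveoli in response to oxytocin. They also make much of the basement membrane, a sheet of laminin, type IV collagen, nidogen and perlecan, while fibroblasts of the stroma make the fibrillar collagens, proteoglycans and elastic fibres around it. An epithelial to mesenchymal transition is the change in which epithelial cells lose E-cadherin and keratins and gain such stromal genes, under factors of the Snai, Zeb, Twist and Prrx families.

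Values are log2 expression per gene, so 1 unit is a doubling, and they are compared between samples for the same gene and never between genes. Differences were tested with limma's moderated test over all 19937 genes. Genes with a Benjamini-Hochberg adjusted p under 0.05 are said to have risen or fallen in stromal cells relative to basal CD49f-low cells. A gene is said to be at a like level where the whole 95% interval of its difference lay within 1 log2 unit of 0. It is called shared where it was at a like level and was also called higher both in stromal than in luminal Sca1-negative cells and in basal CD49f-low than in luminal Sca1-positive cells, a pair of comparisons with no sample in common. As a gauge of background, 95% of 1027 olfactory receptor genes averaged below 5.51 in stromal and below 5.47 in basal CD49f-low samples. In sorted bulk samples, fewer cells of a type and less RNA per cell cannot be told apart. The number of arrays limits the precision.

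The stromal samples differed from each other in luminal epithelial genes. Over 12 luminal markers, the mean level in parous stromal replicates 1, 2 and 3 was 7.21, 7.55 and 6.68, and in nulliparous stromal replicates 1, 2 and 3 it was 7.36, 8.09 and 6.82. Replicate 2 was highest and replicate 3 lowest under both histories, and all 6 lay below the range of 9.33 to 9.78 in the luminal samples. Basal CD49f-low samples had 7.87 to 8.23, a range that held nulliparous stromal replicate 2. The keratin gene Krt18 reached 10.16 in parous stromal replicate 2 and 10.56 in nulliparous stromal replicate 2, against 7.34 to 8.93 in the other stromal samples. Differences in epithelial genes are therefore also given without both stromal samples numbered 2. Basal markers (10 genes) averaged 6.88 to 7.02 in parous and 7.47 to 7.55 in nulliparous stromal samples, against 10.07 to 10.24 in basal CD49f-low samples. The 12 fibroblast markers averaged 9.73 to 10.04 in stromal samples and 5.91 to 6.69 in basal CD49f-low samples, against 5.52 to 5.86 in luminal samples. Each label matched its own marker list.

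The markers named for the 2 cell types behaved differently from one another. Decorin (Dcn), a small proteoglycan that binds collagen fibrils, had 12.49, 12.53 and 12.63 (lowest, median and highest) in stromal samples, against 9.67, 10.24 and 10.73 in basal CD49f-low samples. The groups did not overlap, and the difference was 2.32 (SE 0.18, adjusted p = 1.2e-11), a 4.98-fold higher level. Luminal Sca1-positive samples, at 8.95 to 11.19, spanned the basal CD49f-low range (basal minus luminal Sca1-positive difference -0.06, SE 0.18, adjusted p = 0.87), while luminal Sca1-negative samples, at 7.80 to 9.46, all lay below it. The basal keratin gene Krt14 had 5.25, 6.60 and 7.73 in stromal samples, against 11.08, 11.16 and 11.22 in basal CD49f-low samples, a difference of -4.58 (SE 0.15, adjusted p = 6.2e-20). Sparc (osteonectin, a collagen-binding matricellular protein) and Acta2 (smooth muscle alpha actin) were high in both populations and are described below.

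**Figure D1:**
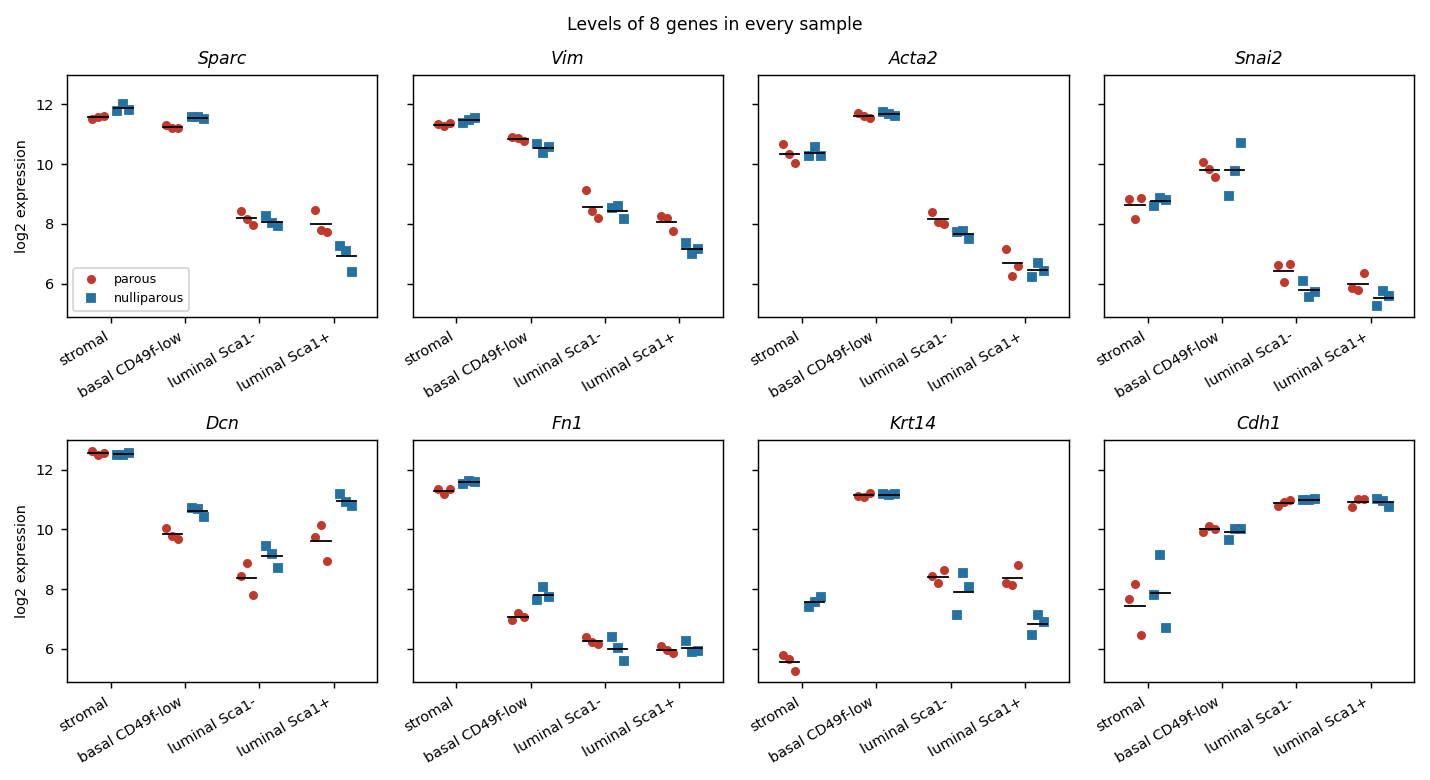
Log2 expression (y axis) of 8 genes in every stromal, basal CD49f-low and luminal sample, parous (circles) left of nulliparous (squares), with a bar at each group mean. Sparc, Vim, Acta2 and Snai2 are high in both stromal and basal samples, Dcn and Fn1 are highest in stromal samples, Krt14 is highest in basal samples, and Cdh1 spreads widely among stromal samples.

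Over the 10 lists of mesenchymal, matrix and contractile genes, 178 genes were measured. Of these, 151 were called (26.4% of all genes were), of which 108 rose in stromal cells (12.1% of all genes) and 43 fell (14.3%). A change of over 1 log2 unit was called upward for 74 of the 178 (3.58% of all genes) and downward for 20 (2.46%). The median difference of the 178 genes was 0.69, beside -0.02 for all genes, and 129 of them had no overlap between the groups, beside 13.7% of all genes. Stromal samples were the higher in 93 of these (6.89% of all genes) and the lower in 36 (6.85%). The counts given below for single lists stand beside the same shares of all genes. These are 12.1% for rises, 14.3% for falls, and 6.89% and 6.85% for rises and falls without overlap. Of the 178, 65 were at a like level, beside 89.5% of all genes. Both luminal comparisons called 90 of the 178 higher, beside 5.45% of all genes, and 27 met the full rule for shared genes, beside 3.36% of all genes. That count depended on the limit for a like level, with 9 list genes under a limit of 1.5-fold and 46 under a limit of 3-fold. Of all genes, 1087 were higher in both luminal comparisons and 670 of these were shared. A shared gene could still be called different between stromal and basal CD49f-low cells. This held for 5 of the 6 shared genes of the basement membrane list, 3 of 4 in the protease list and 2 of 4 in the matricellular list.

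**Figure D2:**
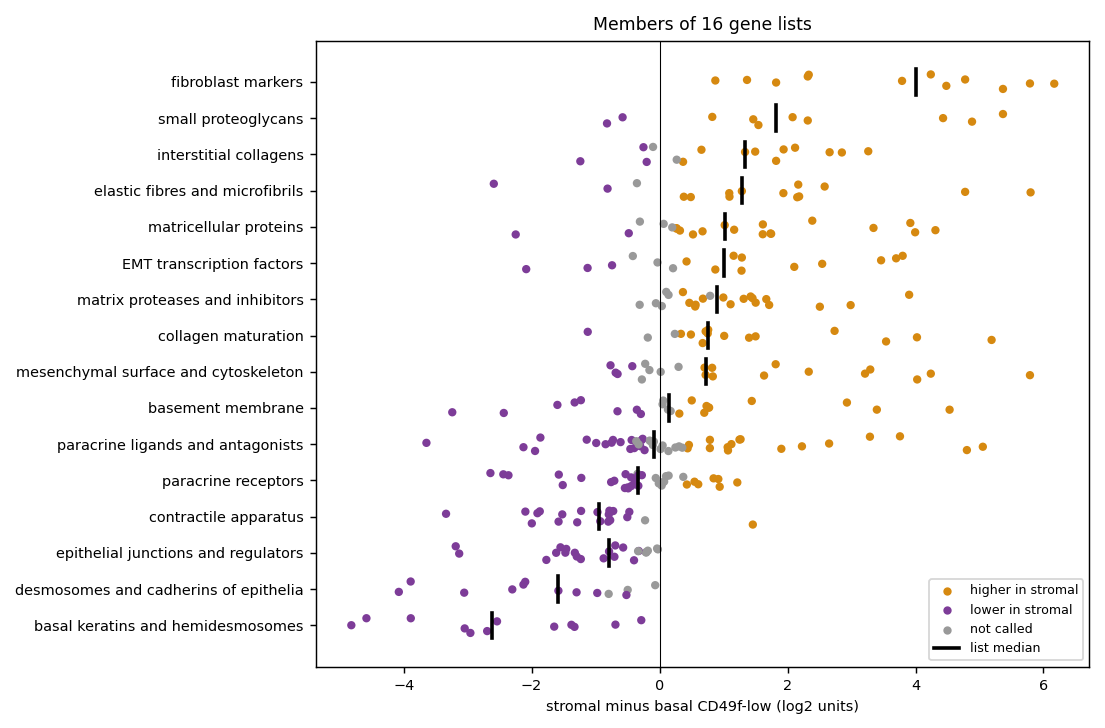
Difference between stromal and basal CD49f-low cells (x axis, log2 units) for the members of 16 gene lists, 1 point per gene, coloured by whether the gene rose, fell or was not called, with a black bar at the list median. Medians run from 4.01 for fibroblast markers to -2.62 for basal keratins and hemidesmosomes, and the basement membrane list, with a median of 0.15, spans both sides.

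Several matrix genes were at a like level in stroma and basal CD49f-low cells. Periostin (Postn), a matricellular protein that links collagen and integrins, had 11.31, 11.60 and 12.07 in stromal samples and 11.44, 11.54 and 11.70 in basal CD49f-low samples. The groups overlapped, with a difference of 0.06 (95% interval -0.41 to 0.54, adjusted p = 0.89). Both stood far above luminal cells, by 3.50 (SE 0.23, adjusted p = 3.2e-13) for stromal over luminal Sca1-negative cells and by 5.85 (SE 0.23, adjusted p = 6.3e-18) for basal CD49f-low over luminal Sca1-positive cells. Col14a1, a collagen that sits on the surface of fibrils, had 9.86, 9.97 and 10.24 in stromal samples and 9.85, 10.08 and 10.44 in basal CD49f-low samples. These ranges nearly coincided (difference -0.10, 95% interval -0.32 to 0.11, adjusted p = 0.55). Sparc had 11.50, 11.70 and 11.99 in stromal samples and 11.20, 11.41 and 11.59 in basal CD49f-low samples. The groups overlapped when the histories were pooled. Within each history every stromal sample lay above every basal one, at 11.50 to 11.62 against 11.20 to 11.30 in parous and 11.79 to 11.99 against 11.52 to 11.59 in nulliparous mice. The difference of 0.32 (95% interval 0.08 to 0.56) passed the test only just (adjusted p = 0.045). It did not pass when any 1 of the 12 samples was left out (adjusted p = 0.054 to 0.11).

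The shared set reached across the other matrix groups. Among proteases and their inhibitors it held Timp3, an inhibitor that binds to the matrix, and the secreted proteases Adamts1, Adamts10 and Adamts15. Adamts15 averaged below the background gauge in basal CD49f-low cells, with samples at 5.08 to 5.68. Adamts1 had 10.81, 10.96 and 11.20 in stromal samples and 10.85, 11.34 and 11.68 in basal CD49f-low samples, with a difference of -0.31 (95% interval -0.56 to -0.06, adjusted p = 0.061). In parous mice the Adamts1 groups were apart, at 10.91 to 11.20 in stromal and 11.59 to 11.68 in basal CD49f-low samples. In nulliparous mice they overlapped, at 10.81 to 10.99 and 10.85 to 11.09, and the history difference was not called. Timp3 had 10.47, 10.74 and 10.91 in stromal samples and 9.89, 10.17 and 10.34 in basal CD49f-low samples. These groups did not overlap, so Timp3 rose in stroma by 0.56 (SE 0.16, adjusted p = 0.0069) while staying inside the limit for a like level. The elastin gene Eln differed by 0.49 (95% interval 0.17 to 0.81), the proteoglycan gene Prelp by -0.58 (95% interval -0.98 to -0.18), and Matn2, which encodes an adaptor protein of matrix filaments, by -0.31 (95% interval -0.67 to 0.05). The processing enzymes Bmp1, which trims procollagen, Loxl3, a lysyl oxidase, and P3h1, a prolyl hydroxylase, were shared with differences of 0.49, 0.33 and 0.24. Spon2, a matricellular protein, and the fibrillar collagen chain Col5a1 were shared too, at 0.52 and 0.37.

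Of the mesenchymal surface and cytoskeleton list, vimentin and N-cadherin were shared. Vimentin (Vim), the intermediate filament of mesenchymal cells, had 11.26, 11.38 and 11.53 in stromal samples and 10.38, 10.73 and 10.90 in basal CD49f-low samples. Every stromal sample lay above every basal sample, and the rise was 0.70 (SE 0.13, 95% interval 0.43 to 0.97, adjusted p = 1.1e-04). Luminal samples lay between 7.01 and 9.12, well below both. N-cadherin (Cdh2) averaged below the background gauge in stroma, at 5.31 to 5.56 in stromal samples and 5.67 to 6.31 in basal CD49f-low samples, and differed by -0.66 (SE 0.13, adjusted p = 2e-04). Podoplanin (Pdpn), listed as a lymphatic endothelial marker and known also from myoepithelial cells and fibroblasts, had 10.04, 10.46 and 10.83 in stromal samples and 9.99, 10.44 and 10.52 in basal CD49f-low samples (difference 0.10, 95% interval -0.28 to 0.48). The other 3 lymphatic markers were not called by limma, nor did they have an unadjusted p under 0.05.

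Of the 12 fibroblast markers, Fap, Pi16 and Tcf21 averaged below the background gauge in basal CD49f-low samples. Fap, a surface protease of activated fibroblasts, had 9.31, 9.94 and 10.06 in stromal samples, against 3.89, 4.10 and 4.14 in basal CD49f-low samples. Its basal minus luminal Sca1-positive difference was -0.06 (adjusted p = 0.82). None of the 12 markers averaged below the gauge in stroma. In 5 of them (Pdgfra, Lum, Cd34, Thy1 and Mfap5), basal CD49f-low cells were above luminal Sca1-positive cells, by 1.12, 1.94, 0.84, 0.89 and 1.15. For Pdgfra, luminal Sca1-negative samples had 6.24 to 6.73 in parous and 5.82 to 6.40 in nulliparous mice. Basal CD49f-low samples, at 6.15 to 6.44 and 6.90 to 7.55, lay above them only in nulliparous mice. The part of stromal RNA in the basal levels of the shared genes was not tested.

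**Figure D3:**
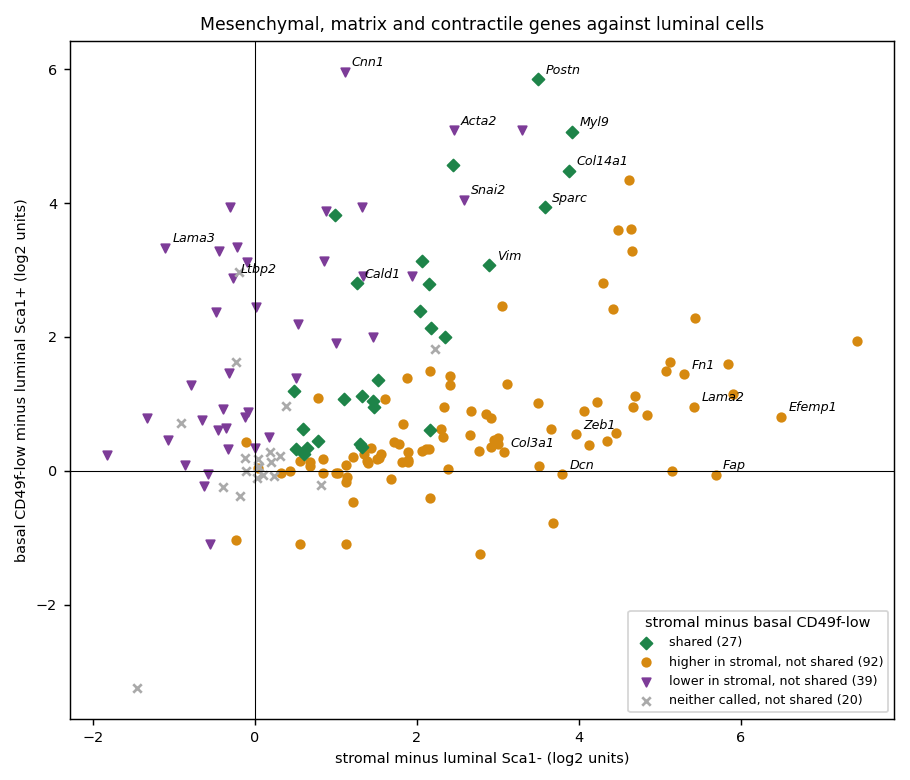
The 178 mesenchymal, matrix and contractile genes, with stromal minus luminal Sca1-negative on the x axis and basal CD49f-low minus luminal Sca1-positive on the y axis (both in log2 units), coloured by the stromal minus basal CD49f-low result. The 27 shared genes, such as Postn, Col14a1, Sparc, Myl9 and Vim, lie up and to the right, while Efemp1, Fap, Zeb1 and Dcn spread along the x axis and Cnn1 lies at the top and Lama3 left of 0.

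The contractile apparatus was present in both populations and stronger in basal cells. Of 20 genes, 18 fell in stroma, 1 (Des) rose and 1 (Synpo2) was not called, with a median difference of -0.95. Against luminal cells, 13 of the 20 were higher in stroma and 19 in basal CD49f-low cells, beside 13.5% and 13.9% of all genes. Acta2 had 10.02, 10.31 and 10.69 in stromal samples, against 11.54, 11.66 and 11.73 in basal CD49f-low samples. No stromal sample reached a basal one, and Acta2 was 2.44-fold higher in basal cells (difference -1.29, SE 0.12, adjusted p = 1.1e-09). It was still higher in stromal than in luminal Sca1-negative cells by 2.45 (SE 0.12, adjusted p = 4e-16). Calponin (Cnn1), an actin-binding regulator of smooth muscle contraction, had the widest gap of the list, with 7.97, 8.45 and 8.66 in stromal samples, against 11.54, 11.76 and 11.93 in basal CD49f-low samples. That is a 10.1-fold higher level in basal cells (difference -3.34, SE 0.14, adjusted p = 1.3e-17). Actg2 (gamma smooth muscle actin), Smtn (smoothelin) and Pdlim3 (an actin-anchored adaptor) fell in stroma by 2.10, 2.00 and 1.91 on the log2 scale, all without overlap.

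Of the 20 contractile genes, 5 were at a like level, and Myl9, Cald1 and Synpo2 met the full rule for shared genes. The myosin light chain gene Myl9 had 10.86, 10.97 and 11.07 in stromal samples and 11.28, 11.44 and 11.63 in basal CD49f-low samples. The difference was -0.47 (95% interval -0.78 to -0.16, adjusted p = 0.018). Caldesmon (Cald1) differed by -0.50 (95% interval -0.83 to -0.18, adjusted p = 0.018, and 0.052 without nulliparous basal CD49f-low replicate 3), and Synpo2, an actin-bundling protein, by -0.23 (95% interval -0.62 to 0.17). Desmin (Des), the muscle intermediate filament, went the other way, with 6.42, 6.66 and 7.33 in stromal samples, against 5.13, 5.24 and 5.47 in basal CD49f-low samples, where its mean was below the background gauge. Myocardin (Myocd), the partner of serum response factor (SRF) in vascular smooth muscle, rose in stroma by 1.08 (SE 0.09), from a basal range of 4.26 to 4.69 that was also below the gauge. Its relatives Mrtfa and Mrtfb, which link SRF to actin dynamics, and Srf itself stayed within the limit for a like level, with differences of -0.41, 0.19 and -0.54. Of the 8 genes of actin regulation by SRF, 2 rose, 5 fell and 1 was not called. As 4 of the 8 were at a like level, a like level did not mean that no difference was called.

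SRF binds a sequence called the CArG box, and the list was scanned for it because its members differed together. Promoter windows (250 bases before to 50 after the annotated start, RefSeq, GRCm38.p6) were found for 17 of the 20 contractile genes. The box, scanned on both strands, was in 2 of their 19 windows (10.5%), those of Myl9 and Vcl, beside 1.63% of all 32851 windows. A match of letters is no evidence of binding. The Myl9 bases upstream of the annotated gene, chr2:156775214-156775407 on the plus strand, are shown with the box in capitals:
Myl9: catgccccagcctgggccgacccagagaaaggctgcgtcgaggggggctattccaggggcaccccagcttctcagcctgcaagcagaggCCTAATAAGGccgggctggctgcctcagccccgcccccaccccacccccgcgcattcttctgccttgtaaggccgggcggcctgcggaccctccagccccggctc

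Stroma-high matrix genes were the most numerous. All of the 12 fibroblast markers rose (12.1% of all genes did), each without overlap (6.89% of all genes), with a median difference of 4.01. Of 15 interstitial collagens, 10 rose and 3 fell, with a median of 1.34. Col3a1, a fibrillar collagen of soft tissue, had 8.59, 9.11 and 10.11 in stromal samples, against 6.25, 6.39 and 6.67 in basal CD49f-low samples (difference 2.85, SE 0.11, adjusted p = 8.1e-19). Col1a1 and Col1a2, the chains of type I collagen, rose by 1.82 and 2.66, and the type VI chains Col6a1 and Col6a3 by 2.12 and 3.26. Col12a1, a fibril-associated collagen of tissues under tension, was one of the 3 that fell. It had 7.37, 7.76 and 8.33 in stromal samples, against 8.64, 9.09 and 9.28 in basal CD49f-low samples (difference -1.24, SE 0.13, adjusted p = 8.4e-09). Col16a1 and Col11a1 also fell, by 0.25 and 0.20 on the log2 scale, and each lost its call in at least 1 fit without a sample (highest adjusted p = 0.065 and 0.072).

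Enzymes that mature collagen also favoured stroma, with 13 of 16 higher and 1 lower. Lox, which cross-links collagen and elastin, had 8.84, 9.54 and 9.58 in stromal samples, against 5.01, 5.25 and 5.85 in basal CD49f-low samples (difference 4.02, SE 0.18, adjusted p = 7.5e-17). The procollagen proteinase enhancers Pcolce and Pcolce2 rose by 3.54 and 5.19. P3h2, a prolyl hydroxylase known for acting on type IV collagen, was the member that fell, with a difference of -1.12 (SE 0.20, adjusted p = 6.6e-05). Of 10 small proteoglycans, 8 rose, among them Lum with 11.14, 11.19 and 11.26 in stromal samples, against 4.26, 5.89 and 7.13 in basal CD49f-low samples. Ogn and Aspn, of the same family, rose by 4.88 and 4.43, and Fmod fell by 0.82 on the log2 scale.

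Elastic fibre genes divided in the same way. Of 15, 12 rose, with Efemp1 and Mfap5, both of the microfibril and elastic fibre network, higher by 5.80 and 4.78. Ltbp2, which encodes a latent TGF-beta binding protein of microfibrils, had 6.06, 6.41 and 7.05 in stromal samples, against 8.81, 9.13 and 9.35 in basal CD49f-low samples. Its difference was -2.59 (SE 0.14, adjusted p = 2.2e-15), and stromal samples overlapped the luminal Sca1-negative range of 6.41 to 7.08. Of 21 matricellular genes, 16 rose, led by Sparcl1 (4.31), fibronectin (Fn1, 3.99), Thbs2 (3.92) and Tnxb (3.34). Fn1 had 11.17, 11.45 and 11.61 in stromal samples, against 6.98, 7.40 and 8.07 in basal CD49f-low samples. Ccn2 (connective tissue growth factor) did the opposite, with 7.73, 7.84 and 8.03 in stromal samples, against 9.98, 10.09 and 10.32 in basal CD49f-low samples (difference -2.25, SE 0.14, adjusted p = 6.3e-14). Of 22 proteases and inhibitors, 16 rose and 0 fell under limma's test (1, Adamts1, was lower at an unadjusted p under 0.05). Stromelysin (Mmp3) led with 3.90, and the ADAMTS protease genes Adamts12 and Adamts5 and the metalloprotease gene Mmp19 rose by 2.99, 1.71 and 2.50. For Adamts5, basal CD49f-low samples had 8.98 to 9.59 in parous and 7.06 to 8.26 in nulliparous mice. Stromal samples had 10.04 to 10.34, and the history difference was not called.

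The basement membrane list split by chain. Of 22 genes, 10 rose and 8 fell in stroma, with a median of 0.15. Laminins are trimers of an alpha, a beta and a gamma chain, and the alpha chain sets which receptors they bind. Lama2, the alpha chain of muscle and nerve laminin, had 10.42, 10.70 and 10.74 in stromal samples, against 5.62, 6.25 and 6.55 in basal CD49f-low samples (difference 4.53, SE 0.14, adjusted p = 1e-20). Lama4, the alpha chain of vessel laminin, rose by 2.93, and the nidogens Nid1 and Nid2, which tie laminin to type IV collagen, by 3.40 and 1.44. Lama3, the alpha chain of the laminin beneath hemidesmosomes, had 5.44, 6.11 and 6.31 in stromal samples, against 9.09, 9.22 and 9.39 in basal CD49f-low samples. Its difference was -3.24 (SE 0.11, adjusted p = 1.5e-19), and its partner chain Lamb3 and the alpha chain Lama1 fell in stroma by 1.60 and 2.44 on the log2 scale.

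The shared members of the list were beta, gamma and collagen chains common to many basement membranes, and perlecan. Lamb1 had 9.32, 9.57 and 9.95 in stromal samples and 8.94, 9.04 and 9.33 in basal CD49f-low samples (difference 0.50, 95% interval 0.30 to 0.71). Lamb2 and Lamc1 differed by 0.73 and 0.76, Hspg2 (perlecan) by 0.70, Col4a2 by 0.31 and Col18a1 by 0.05, and all 6 met the rule for shared genes. Of these 6, 5 were also called, each as higher in stroma. Col4a1, which pairs with Col4a2, rose by 0.77 (95% interval 0.53 to 1.02) and missed the like level by the upper end of its interval. Col4a6, a type IV chain of epithelial basement membranes, was lower in stroma (difference -1.33, SE 0.09, adjusted p = 1e-12).

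**Figure D4:**
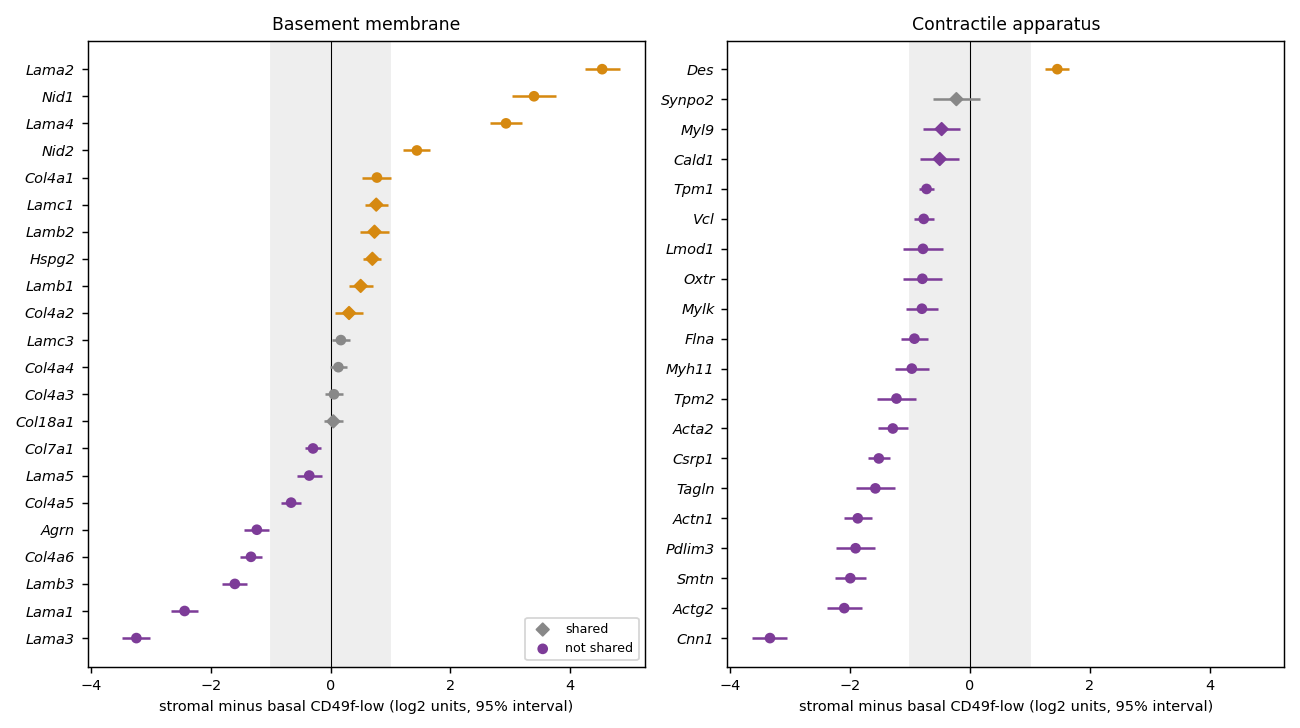
Stromal minus basal CD49f-low difference (x axis, log2 units, with 95% intervals) of the 22 basement membrane and 20 contractile genes; orange rose, purple fell, grey was not called, diamonds are shared genes, and the grey band spans 1 log2 unit either side of 0. Lama2, Nid1 and Lama4 lie far right and Lama3 and Lama1 far left with the shared chains between, and all contractile genes but Des lie left of 0.

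Transcription factors of the epithelial to mesenchymal transition did not move as a block. Of 16, 10 rose in stroma and 3 fell, with a median of 1.01. Zeb1, a repressor of E-cadherin, had 8.93, 9.36 and 9.58 in stromal samples, against 5.12, 5.61 and 5.90 in basal CD49f-low samples (difference 3.80, SE 0.17, adjusted p = 2.7e-17). Zeb2, Prrx1 and Twist1 rose by 3.70, 3.46 and 2.54. Prrx1, a homeobox factor of mesenchyme, was also 2.28 (SE 0.18, adjusted p = 1.5e-11) higher in basal CD49f-low than in luminal Sca1-positive cells. Snai2 (Slug), a repressor known from basal mammary cells, had 8.16, 8.82 and 8.87 in stromal samples, against 8.94, 9.80 and 10.71 in basal CD49f-low samples. The groups came close without overlapping, with a difference of -1.13 (SE 0.23, adjusted p = 2.5e-04). It was far above luminal cells in both, by 2.58 for stromal and 4.05 for basal CD49f-low cells. Sox9 and Sox10, factors of epithelial progenitors and of neural crest, fell in stroma by 2.09 and 0.74, and Snai1 was at a like level (difference 0.21, 95% interval 0.04 to 0.38). Meox1 met the rule for shared genes, with a basal mean below the gauge.

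Receptors that mark mesenchyme rose with Zeb1. Pdgfra, the PDGF receptor of fibroblasts, had 10.96, 11.03 and 11.15 in stromal samples, against 6.15, 6.67 and 7.55 in basal CD49f-low samples (difference 4.24, SE 0.20, adjusted p = 1.6e-16). The collagen receptor Ddr2, the mesenchymal cadherin Cdh11 and Pdgfrb rose by 4.03, 3.29 and 3.21. The epithelial counterpart of Ddr2, Ddr1, differed by -0.77 (95% interval -0.93 to -0.60), and Nt5e (CD73) by -0.69. Over the whole list of 21 surface and cytoskeletal genes, 12 rose and 4 fell. The integrin subunits Itgb1 and Itga8 and the hyaluronan receptor Cd44 were at a like level without a call, with differences of -0.16, -0.23 and -0.28. Itgav fell by 0.43 on the log2 scale and also stayed within the limit.

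All 12 genes of basal keratins and hemidesmosomes fell in stroma (14.3% of all genes did), 11 of them without overlap (6.85% of all genes), with a median of -2.62. Krt5, the partner of Krt14, had 5.65, 6.74 and 7.88 in stromal samples, against 11.28, 11.52 and 11.71 in basal CD49f-low samples, a 28.2-fold higher level in basal cells (difference -4.82, SE 0.13, adjusted p = 1.7e-22). Trp63, the master factor of basal epithelia, had 6.22, 6.67 and 6.93 in stromal samples, against 9.35, 9.61 and 10.10 in basal CD49f-low samples (difference -3.05, SE 0.16). Itgb4 and Plec, which form the hemidesmosome plaque, differed least, by -0.69 and -0.29. Of 13 desmosome and cadherin genes, 10 fell, with desmoplakin (Dsp) lower by 4.08 and P-cadherin (Cdh3) by 3.89 on the log2 scale. Cdh3 averaged below the background gauge in stroma, with samples at 5.26 to 5.84, against 9.25 to 9.50 in basal CD49f-low samples.

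Junction genes of epithelia in general also fell in stroma, with a wide spread among the stromal samples. E-cadherin (Cdh1) had 6.47, 7.73 and 9.15 in stromal samples, against 9.66, 10.01 and 10.12 in basal CD49f-low samples (difference -2.30, SE 0.25, adjusted p = 1.7e-08), and the difference was -2.80 without both stromal samples numbered 2. Epcam, an epithelial adhesion molecule, had 5.64, 7.35 and 8.39 in stromal samples, against 8.80, 9.21 and 9.42 in basal CD49f-low samples. Its difference of -2.10 (SE 0.28, adjusted p = 5.4e-07) was -2.62 without those samples. Of 23 epithelial junction genes and regulators, 17 fell, with the splicing regulator Esrp1 lower by 3.19 and the factor Grhl2, which maintains epithelial junctions, by 3.13. These were -3.68 and -3.32 without both samples numbered 2. The part of luminal cells in the stromal levels was not tested.

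Snai2 and the Zeb factors bind E-boxes of the form CAGGTG or, on the other strand, CACCTG. In the 36 genes of the desmosome and junction lists, windows were found for 17, and 16 of their 23 windows (69.6%) held this E-box, beside 20.2% of all windows. For the basal keratin and hemidesmosome list it was 5 of 9 windows (55.6%), with windows for 6 of 12 genes, and for the contractile list 6 of 19 (31.6%). The windows were not matched for base composition. The windows of Epcam (chr17:87635729-87635978, plus strand) and Krt5 (chr15:101712906-101713155, minus strand) are shown because both hold the E-box and both genes were lower in stroma. Of the factors named here, Zeb1 and Zeb2 were higher in stroma and Snai2 was higher in basal CD49f-low cells. E-boxes are in capitals, and a match does not show that a factor binds there:
Epcam: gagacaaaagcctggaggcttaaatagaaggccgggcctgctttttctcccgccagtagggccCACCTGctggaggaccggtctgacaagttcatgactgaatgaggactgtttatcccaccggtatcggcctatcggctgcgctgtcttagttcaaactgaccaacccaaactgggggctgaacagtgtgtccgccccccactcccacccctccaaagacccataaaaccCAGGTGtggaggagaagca
Krt5: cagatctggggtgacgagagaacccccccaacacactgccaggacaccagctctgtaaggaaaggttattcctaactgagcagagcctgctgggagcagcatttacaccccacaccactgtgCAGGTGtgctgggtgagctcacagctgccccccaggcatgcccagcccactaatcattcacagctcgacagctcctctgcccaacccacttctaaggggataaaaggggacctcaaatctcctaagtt

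Some of the largest differences lay outside the lists. In 8 of the 12 largest rises the basal mean, and in 6 of the 12 largest falls the stromal mean, was below the background gauge, so the sizes and ranks of those differences are uncertain. Among the 12 largest rises were Ifi205, an interferon-inducible gene (6.50), Nova1, which encodes a splicing regulator best known from neurons (6.22), Dpt (dermatopontin, a collagen-binding matrix protein, 6.17) and Dpp4, a surface peptidase of fibroblast progenitors (5.51). Nova1 had 10.48, 10.61 and 10.95 in stromal samples, against 4.14, 4.52 and 4.59 in basal CD49f-low samples, all below the gauge (adjusted p = 9.7e-27). The largest falls, beside the keratins, were Serpinb5 (maspin, a serpin of epithelia), Fgg (fibrinogen gamma chain) and Ecrg4 (a secreted peptide precursor), lower by 4.53, 4.27 and 4.22 on the log2 scale. Serpinb5 had 3.68, 4.91 and 6.40 in stromal samples, against 9.14, 9.58 and 9.70 in basal CD49f-low samples. The factor Tfap2b and the secreted proteins Egfl6 and Chil1 fell by 3.73, 3.77 and 3.60.

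Paracrine ligands were divided between the populations. Of 45 ligands and antagonists, 16 rose and 17 fell in stroma, with a median of -0.09. Fgf7, a ligand for the epithelial FGF receptor, had 9.35, 9.94 and 10.15 in stromal samples, against 4.41, 4.71 and 5.31 in basal CD49f-low samples, all below the gauge (difference 5.05, SE 0.21, adjusted p = 5.5e-18). Igf1, a growth factor made by stroma, had 9.28, 9.38 and 9.52 in stromal samples, against 5.07, 5.71 and 5.97 in basal CD49f-low samples, and the Wnt antagonist Sfrp4 and the cytokine Il6 rose by 4.80 and 3.29. Neuregulin 1 (Nrg1), a ligand of the receptors ErbB3 and ErbB4, had 5.09, 5.44 and 5.62 in stromal samples, against 7.51, 9.28 and 9.72 in basal CD49f-low samples (difference -3.64, SE 0.29, adjusted p = 2.7e-11). The chemokine Cxcl14, the Notch ligand Dll1 and Pdgfc fell in stroma by 2.13, 1.95 and 1.86.

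Hepatocyte growth factor (Hgf), a ligand for Met best known as a product of stroma, was at a like level in basal CD49f-low cells. It had 7.04, 7.51 and 8.03 in stromal samples and 6.65, 7.47 and 8.64 in basal CD49f-low samples, with a wider spread in the basal ones (difference 0.01, 95% interval -0.37 to 0.40, adjusted p = 0.97). Stromal cells were 3.05 (SE 0.19) above luminal Sca1-negative cells and basal CD49f-low cells 3.23 (SE 0.19) above luminal Sca1-positive cells. Bmp7, Pdgfa, Jag1 and Sfrp1 were the other shared ligands and antagonists. Bmp7 overlapped in parous mice, at 7.12 to 7.17 in stromal and 7.07 to 7.44 in basal CD49f-low samples. In nulliparous mice it was apart, at 7.02 to 7.30 and 7.82 to 8.14, and the history difference was not called.

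Of 35 receptors, 7 rose and 18 fell in stroma. Fgfr2, the receptor for Fgf7 in its epithelial splice form, had 6.12, 6.49 and 6.97 in stromal samples, against 8.88, 9.16 and 9.33 in basal CD49f-low samples (difference -2.64, SE 0.13, adjusted p = 3.1e-16). Fgf7 and Fgfr2 thus lay on opposite sides. The R-spondin receptors Lgr5 and Lgr4 fell in stroma by 2.44 and 2.36, and Lifr, the receptor for leukaemia inhibitory factor, by 1.58. The TGF-beta receptor Tgfbr2 rose by 1.21 (SE 0.10), and Notch2, Egfr and Notch3 by 0.94, 0.92 and 0.84. Tgfbr3 (betaglycan), the TGF-beta co-receptor, was shared, with 9.24, 9.41 and 9.69 in stromal samples and 9.24, 9.43 and 9.71 in basal CD49f-low samples. Fgfr1, Fzd1, Fzd2, Bmpr2 and Il6st were shared as well.

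Markers of vessel cells were higher in stromal samples. Of 8 pericyte markers, 7 rose and Mcam fell, and their mean was 7.43 to 7.78 in stromal samples, against 5.99 to 6.30 in basal CD49f-low samples. Abcc9 and Rgs5, genes of the pericyte, rose by 3.08 and 2.71. Of 12 endothelial markers 7 rose and 0 fell under limma's test (0 also at an unadjusted p under 0.05), with means of 6.85 to 7.08 in parous and 7.27 to 7.73 in nulliparous stromal samples, against 5.76 to 6.46 in basal CD49f-low samples. Pericytes also carry contractile genes, and their part in the stromal levels of Acta2, Des and Myocd was not tested. Limma called 0 of the 13 macrophage and dendritic markers (0 also at an unadjusted p under 0.05), and the means were 5.49 to 6.06 in stromal samples and 5.57 to 6.55 in basal CD49f-low samples. Of the 10 lymphocyte, 7 adipocyte, 6 Schwann cell, 6 skeletal muscle and 2 red cell markers, 1, 2, 2, 1 and 0 rose and 0, 1, 1, 1 and 0 fell by limma. At an unadjusted p under 0.05, 1 red cell marker was lower and the other counts were the same. Of all genes, 12.1% rose and 14.3% fell by limma. The adipocyte gene Fabp4, which capillaries also express, rose by 1.68 (SE 0.45). The Schwann cell gene Cdh19 was called, but both group means were below the gauge.

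The stromal minus basal difference depended on history for 48 genes, 0.241% of all, of which 18 had a higher stromal minus basal value in parous than in nulliparous mice (0.0903%) and 30 a lower one (0.15%). Only 12 of the 48 kept the call when any 1 of the 12 samples was left out. With the 12 samples fitted alone, 8 genes were called, and 5 of the 15 named genes kept the call (Krt14, Krt5, Frmpd4, Fbln1 and Medag). For Sparc and Acta2 the history term was 0.02 and 0.04, for Dcn it was 0.81 (adjusted p = 0.65), and for Trp63 -0.36 (adjusted p = 0.90).

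Basal keratins differed in the stroma. Krt5 had 5.649, 5.662 and 6.001 in parous and 7.48, 7.49 and 7.88 in nulliparous stromal samples, while basal CD49f-low samples had 11.44, 11.53 and 11.71 in parous and 11.28, 11.51 and 11.62 in nulliparous mice. The stromal groups were well apart and the basal groups overlapped, so the gap was -5.79 in parous and -3.85 in nulliparous mice (difference -1.94, SE 0.25, adjusted p = 2.5e-04). Krt14 and Itga6 showed the same, by -1.97 (SE 0.31, adjusted p = 0.0015) and -1.41 (SE 0.24, adjusted p = 0.0040). Dsp differed by -1.16 (adjusted p = 0.030) and lost its call in 7 of the 12 fits without 1 sample (highest adjusted p = 0.12). The 10 basal markers as a whole averaged 6.88 to 7.02 in parous and 7.47 to 7.55 in nulliparous stromal samples. Limma called no history difference for Trp63 and Cdh3 (adjusted p = 0.90 and 0.79). Trp63 had 6.22 to 6.67 in parous and 6.66 to 6.93 in nulliparous stromal samples, and Cdh3 5.26 to 5.34 and 5.49 to 5.84. Krt17 (5.54 to 5.98 and 6.29 to 6.67) and Cnn1 (7.97 to 8.40 and 8.49 to 8.66) were also lower in parous stroma. Acta2 overlapped, at 10.02 to 10.69 and 10.26 to 10.58. Endothelial markers were lower in parous stroma too, averaging 6.85 to 7.08 in parous and 7.27 to 7.73 in nulliparous stromal samples. The part of basal or endothelial cells in these differences was not tested. Krt15, a basal keratin of progenitors, moved on the basal side instead, with 7.14, 7.37 and 8.05 in parous and 9.01, 9.86 and 10.32 in nulliparous basal CD49f-low samples (history difference 2.41, SE 0.44, adjusted p = 0.012).

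Of the matrix genes, Kera (keratocan, a small proteoglycan of cornea) had 4.42, 4.84 and 5.50 in parous and 6.60, 6.86 and 7.77 in nulliparous stromal samples. It stayed at 4.19 to 4.56 in basal CD49f-low samples (history difference -2.11, SE 0.30, adjusted p = 3.9e-04). Crispld2, a secreted protein, had 7.23, 7.28 and 7.35 in parous and 8.24, 8.68 and 9.09 in nulliparous basal CD49f-low samples. Its stromal samples overlapped between the histories, at 8.53 to 9.15 in parous and 8.23 to 8.67 in nulliparous mice. Stroma was thus higher by 1.55 in parous mice and differed by -0.28 in nulliparous mice. Medag, an adipogenesis gene, did the reverse, with 7.59, 7.96 and 8.28 in parous and 5.61, 5.73 and 6.30 in nulliparous basal CD49f-low samples. Pappa, the protease that frees IGF from its binding proteins, had 6.26, 6.35 and 6.45 in parous and 7.72, 8.63 and 9.05 in nulliparous basal CD49f-low samples, against 6.18 to 6.59 in stroma. Its history difference of 2.21 (adjusted p = 0.014) was 1.92 without nulliparous basal CD49f-low replicate 2 (adjusted p = 0.054). Fbln1 and Fbln2 (fibulins of elastic fibres and basement membranes) had history differences of 1.23 and 1.36 (adjusted p = 0.033 and 0.030), which lost their calls in fits without 1 sample (highest adjusted p = 0.092 and 0.10). Fbln1 differed on both sides. It had 9.63 to 9.81 in parous and 8.87 to 9.13 in nulliparous stroma, beside 6.46 to 6.58 and 6.92 to 7.20 in basal CD49f-low samples. Fibroblast markers averaged 5.91 to 6.20 in parous and 6.25 to 6.69 in nulliparous basal CD49f-low samples, and their part in the basal levels of Crispld2, Fbln1 and Fbln2 was not tested.

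**Figure D5:**
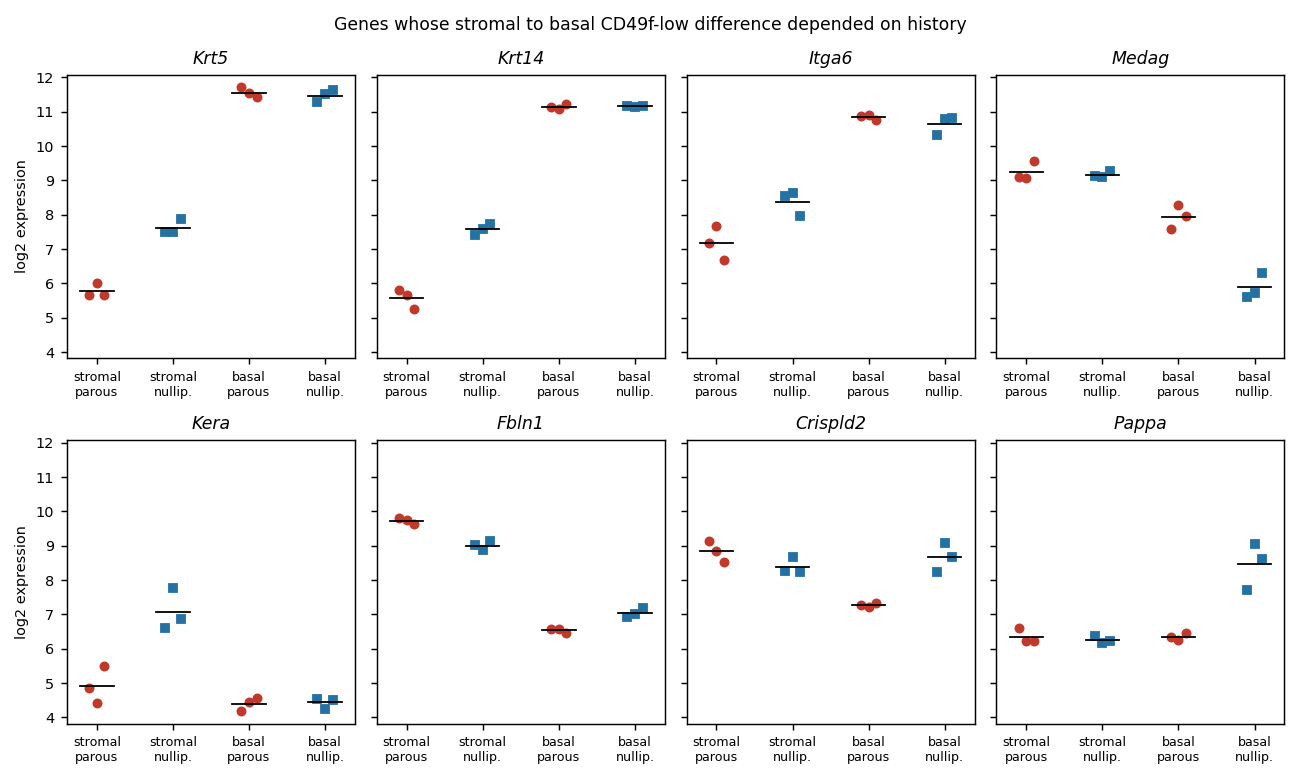
Log2 expression (y axis) of 8 genes in each stromal and basal CD49f-low sample, parous (circles) left of nulliparous (squares), with a bar at each group mean. Krt5, Krt14 and Itga6 are lower in parous than in nulliparous stromal samples, with Kera, while Medag, Crispld2 and Pappa differ between the histories in basal samples.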

How the data were processed

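Values are the log2 expression values that the authors deposited for 34760 probe sets in 35 samples. Per the submitters' processing notes the affy package was used, with its version and the normalization not given in the sources used here. Genes were taken from 21640 probe sets with 1 symbol (1321 had several and 11799 none), using the probe set with the highest mean for 954 genes with several. That left 19937 genes, of which 19854 were matched through Entrez IDs to current symbols. Values ran from 1.74 to 13.28 with sample medians of 5.813 to 5.924, and replicates correlated at 0.977 to 0.989 over 12 pairs of samples.

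A model with a mean for each of the 12 groups of subpopulation and history was fitted to all 35 samples with limma 3.58.1 (lmFit, eBayes with an intensity trend, R 4.3.3), and p-values were adjusted by Benjamini-Hochberg over all genes. The 35 samples also included 6 labelled as epithelial cells and 5 of basal CD49f-high cells, the latter from 2000 cells each. These entered the estimate of spread behind the p-values. Tables were made with Python 3.11.15, pandas 2.3.3 and numpy 2.4.6, and the fit was tested on simulated data. Same-numbered stromal and basal CD49f-low samples deviated from their group means with correlations of 0.055 to 0.12, of which 1 of 6 exceeded 0.1. Differently numbered samples of the same history had -0.088 to -0.0037. As the labels do not say what a number means, the numbers were not taken as pairs in the main fit.

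The members and gene lists were chosen with earlier results of these data known. The naming rule took the 12 largest called differences each way without overlap, up to 4 called genes each way and up to 4 at a like level per list, a panel of 15 genes, and the 6 largest history differences each way, leaving out predicted symbols. Genes outside it, among them the rest of the shared set, were chosen after their values were seen. The olfactory receptor gauge was also added afterwards. Promoter windows came from RefSeq (GRCm38.p6), keeping only bases before the annotated gene in the sequences shown. Alternatives were array weights, no trend, quantile normalization, a filter on dim genes, the mean over probe sets, the 12 samples alone, replicate blocks, other limits for a like level, exchanged luminal groups, and fits without samples.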

Additional observations from a re-analysis of the deposited data

Results flagged for a closer look

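Among 54 groups of values tested for a sample far from the others, 2 had one, and chance flags about 1 in 20 groups. Itga6 was lowest in nulliparous basal CD49f-low replicate 1, at 10.32, with the other basal samples at 10.76 to 10.89. The lymphocyte marker mean was highest in the same sample, at 4.95, with the others at 4.73 to 4.80.

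The stromal minus basal CD49f-low difference depended on history, by limma's test of the difference itself, for 15 named genes, of which 10 lost the call when the 12 samples were fitted alone (Crispld2, Pappa, Krt15, Kera, Dio2, Sorcs1, St8sia6, Itga6, Dsp and Ubd, adjusted p = 0.058 to 0.33). It was lower in parous than in nulliparous mice for Krt14 (-1.97), Krt5 (-1.94), Itga6 (-1.41), Kera (-2.11), Medag (-1.99), Frmpd4 (-2.26) and Ubd (-3.17). It was higher in parous mice for Krt15 (2.41), Pappa (2.21), St8sia6 (1.92), Crispld2 (1.84), Dio2 (1.698) and Sorcs1 (1.58). Frmpd4 had 7.60, 8.20 and 8.31 in parous and 5.33, 5.90 and 6.04 in nulliparous basal CD49f-low samples, with stroma at 4.84 to 5.13. Dio2, the deiodinase that activates thyroid hormone, had 6.10, 6.50 and 7.47 in parous and 5.08, 5.18 and 5.38 in nulliparous stromal samples. Ubd, St8sia6 and Sorcs1 lost their calls in fits without 1 sample, with highest adjusted p of 0.14, 0.086 and 0.17. Basal markers averaged 6.88 to 7.02 in parous and 7.47 to 7.55 in nulliparous stromal samples, endothelial markers 6.85 to 7.08 and 7.27 to 7.73, and their part in the keratin and Itga6 differences was not tested.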

How the results depend on the processing

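Of 233 named genes, 164 were called and 127 of these kept the call under every alternative. Leaving out 1 sample gave 4779 to 5179 called genes in place of 5262 (2223 to 2395 higher, 2536 to 2784 lower), 147 to 151 of the 178 list members (104 to 108 higher, 41 to 44 lower), and 620 to 659 shared genes (25 to 28 in the lists). In the fit to all 35 samples, the comparison of parous stromal with parous basal CD49f-low samples called 3437 genes, 1782 of them lower. The same comparison for nulliparous samples called 1815 lower. The replicate block gave 5697. The shared set depended on its limit, with 387 genes (9 in the lists) within 1.5-fold and 46 list genes within 3-fold, in place of 670 and 27. Exchanging the luminal groups gave 676 and 28. The history count of 48 was 126 with array weights, 8 with the 12 samples alone, 90 with the replicate block, 74 with the number as a random block (correlation 0.0703), and 19 to 56 without 1 sample. It was 19 without parous basal CD49f-low replicate 2, 20 without nulliparous basal CD49f-low replicate 2 and 30 without nulliparous stromal replicate 1. The causes were not tested. Every sample correlated best with the sample of its own number, a hint from the data. Within one history, the sign turned for Crispld2 (-0.28, nulliparous), Meox1 (-0.027, parous) and Ubd (-0.21, parous). Without both stromal samples numbered 2, Sparc, Cald1, Eln, Prelp, Loxl3, Ccn5 and Col11a1 lost their calls. Where a group averaged below the background gauge, as for Cdh2 in stroma and Des, Myocd, Nova1 and Fgf7 in basal cells, the size of the difference is uncertain.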
